A study of Mus musculus with 13 samples.

Results

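The barcodes described here are minor clones that came back in several mice of 1 host strain and stayed low or absent in the other. They were chosen from the per-mouse mean M of the bone marrow and spleen values in CPM, the reads of a barcode scaled to 1000000 reads per library. A barcode had to be present in the starting population, stay under 10000 CPM (1% of a library) in every mouse, reach 10 CPM in at least 2 of 3 mice of one strain, and lie under 10 CPM in all 3 mice of the other. The rule took 81 of the 2505 barcodes in the table, of which it put 23 in the group called Ptprca only and 58 in that called NSG only. Levels in the mice chose these barcodes, so the difference in their levels between strains is a description, and no test is given for it. Strain tests below are on the number of barcodes only, with the rule applied anew to each way to part the mice.

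The MLL-AF9 gene fusion, found in acute myeloid leukaemia, drove the disease, and the cells at its origin were c-Kit positive haematopoietic progenitors tagged with SPLINTR barcodes. The hosts at disease were 3 Ptprca mice (mice 1, 2 and 3), a strain with a complete immune system that carries the CD45.1 allele, and 3 NSG mice (mice 4, 5 and 6). The labels state neither age nor cell dose per mouse. The starting population was sampled in 1 baseline library. From every mouse 1 library came from bone marrow and 1 from spleen, both of sorted viable cells, so a strain has 3 replicate animals.

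A genomic barcode is copied at each division, so its share of a library follows the share of cells that descend from 1 tagged founder. A cell can take up more than 1 barcode at transduction, in which case several barcodes report 1 clone. NSG mice lack T cells, B cells and natural killer cells, which can act on transplanted leukaemia cells in a host with an intact immune system.

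The labels do not say how technical repeats were combined, but the low values of every library fitted the mean of 2 repeats, and read totals, floors and counts by repeat rest on that inference. So read, the libraries held 2484519 to 5252942 reads. The floor, set at 3 reads in the shallower repeat, ran from 0.575 to 8.80 CPM, so the limit of 10 CPM lay above the floor of every library. The repeats were less alike in the NSG spleens. There 72.3%, 59.8% and 73.8% of all barcodes between 10 and 1000 CPM had reads in both repeats (mice 4, 5 and 6), against 89.5% or more in the other libraries. Floors and intervals cover counting error only, because 1 molecule can give many PCR reads and no molecular identifiers were counted.

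One-sided recurrence was more frequent between the real strains than between any other grouping of the mice. Of 2344 minor barcodes that could meet the rule, 81 did (3.46%), 23 in Ptprca mice only (0.981%) and 58 in NSG mice only (2.47%). The 6 mice can be parted into 3 and 3 in 10 ways, and the same rule gave 32 to 43 barcodes in the 9 other ways. The exact one-sided permutation test over the 10 ways gave p = 0.1, the smallest it allows. A design of 3 against 3 mice therefore cannot place this excess under 0.05. The real strains also had the highest total in 17 of the 20 alternative settings. The exceptions were the 3 settings that left out an NSG mouse. Their totals were 62, 58 and 64 against up to 72, 66 and 72 in other ways to part the 5 mice (exact permutation p = 0.4 each). There a side of 2 mice had to hold a barcode in both, and a side of 3 in 2 of 3.

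The NSG side held 35 more barcodes than the Ptprca side. In the other 9 ways the sides differed by 2 to 24 (exact two-sided permutation p = 0.1, the smallest possible). This difference depended on how presence was defined. At 10 CPM or more, NSG mice held 329 ± 19.2 barcodes of any size and Ptprca mice 251 ± 10.1 (SD, n = 3 each). When each mouse was given the same number of top-ranked barcodes (242), 25 were NSG only and 30 were Ptprca only, a difference of -5 (exact permutation p = 0.6). From spleen alone the numbers were 20 and 36, a difference of -16 (exact permutation p = 0.2). Leaving out a mouse also moved the numbers, but it changed the rule unequally. The strain with 2 mice left had to hold a barcode in both, while the other still needed 2 of 3. Absence was then asked of only 2 mice in the reduced strain. The NSG number was 33, 27 and 36 without mice 4, 5 and 6, where the difference came to 4, -4 and 8 (exact permutation p = 1 each). The Ptprca number was 11, 10 and 16 without mice 1, 2 and 3, where the difference came to 71, 70 and 60 (exact permutation p = 0.1 each). Which side held more barcodes thus changed with the measure of presence. The settings with a mouse left out cannot compare the sides, because the rule was stricter for the strain with 2 mice.

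Recurrence in all 3 mice of a strain was the smaller part of each group. In NSG mice, 19 of 58 barcodes (32.8%) reached 10 CPM in all 3 animals, 17 in mice 4 and 5 only, 14 in mice 5 and 6 only and 8 in mice 4 and 6 only. In Ptprca mice, 7 of 23 (30.4%) did so in all 3 animals, 9 in mice 1 and 2, 4 in mice 2 and 3 and 3 in mice 1 and 3. Among the barcodes found in 2 mice, the third mouse of the strain was at 0 in both organs for 33 of 39 NSG only and 10 of 16 Ptprca only barcodes. With recurrence in 3 of 3 mice as the rule, the real strains gave 26 barcodes and the other ways at most 9 (exact permutation p = 0.1).

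The rest of the minor barcodes place these numbers. A further 172 reached 10 CPM in exactly 1 mouse, 113 of them in an NSG and 59 in a Ptprca mouse. Another 77 reached it in all 6 mice, and 1843 in none. Own members made up 8.88%, 9.85% and 7.33% of the minor barcodes at 10 CPM or more in Ptprca mice 1, 2 and 3, and 16.8%, 16.6% and 15.5% in NSG mice 4, 5 and 6.

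Together the members were a small part of each leukaemia. The Ptprca only barcodes summed to 0.791%, 2.01% and 1.78% of mice 1, 2 and 3, a mean of 1.53% ± 0.647 (SD, n = 3). The NSG only barcodes summed to 1.84%, 3.39% and 2.38% of mice 4, 5 and 6, a mean of 2.54% ± 0.784 (SD, n = 3). The same barcodes had held 1.06% and 3.77% of the baseline library. The sums in a mouse leaned on a few barcodes: the largest member gave 20.6% to 35.2% of the sum in Ptprca mice and 22.6% to 39.9% in NSG mice.

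The Ptprca only barcode with the highest mean level was GFP_Barcode_81719, which stood at 14.3 CPM at baseline. It held 49.7 and 1.85 CPM in bone marrow and spleen of mouse 1, 13005 and 1153 CPM in mouse 2, and 6849 and 458 CPM in mouse 3. Mice 2 and 3 were both far above mouse 1, and the only NSG library with reads was mouse 4 bone marrow, at 3.22 CPM. GFP_Barcode_56, at 18.8 CPM at baseline, was at 0 in mouse 1 and in all 6 NSG libraries. It held 5302 and 215 CPM in mouse 2 and 5439 and 819 CPM in mouse 3, with near-equal bone marrow levels in separate animals. Against the mean floor of the NSG libraries, 0.822 CPM, its mean M of 1962 CPM was at least 2387-fold higher.

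GFP_Barcode_25810 was present in every Ptprca library. It held 3225 and 124 CPM in mouse 1, 156 and 21.4 CPM in mouse 2, and 5789.9 and 31.5 CPM in mouse 3, always less in spleen than in bone marrow. GFP_Barcode_101096 was found in mice 1 and 3, at 789 and 1828 CPM and at 6638 and 313 CPM, and was at 0 in mouse 2. The organ with more of this clone thus changed from one mouse to the other. GFP_Barcode_114367 showed the same pair of mice, with 2137 and 109.9 CPM in mouse 1 and 2584 and 134 CPM in mouse 3. GFP_Barcode_7130, the member rarest at baseline on the Ptprca side (3.25 CPM, 95% Wilson interval 0.000198% to 0.000522% of the library), reached 4537 and 1822 CPM in mouse 2 and only 28.1 and 73.6 CPM in mouse 1.

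The members most abundant at baseline behaved differently. GFP_Barcode_5395 started at 4088 CPM and was evenly low in Ptprca mice, at 81.8 and 40.7, 59.7 and 35.3, and 66.4 and 120.0 CPM in bone marrow and spleen of mice 1, 2 and 3. No NSG library held more than 0.272 CPM of it. Its mean M of 67.3 ± 23.5 CPM (SD, n = 3) was 0.0165 of its baseline value, so it recurred at a lower share in all 3 mice. GFP_Barcode_32970 (1111 CPM at baseline) was at 0 in mouse 1 and peaked at 88.1 CPM, in the spleen of mouse 2.

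Among the NSG only barcodes GFP_Barcode_28531 was the largest, with 239 and 368 CPM in mouse 4, 6109.8 and 9229.6 CPM in mouse 5, and 14166 and 4841 CPM in mouse 6. It was the only one of 58 above 0 in all 6 NSG libraries, and the highest Ptprca library held 3.49 CPM. Its mean M was 0.566 of its baseline value of 10299 CPM, the highest baseline of any member. The next largest were erratic. GFP_Barcode_50242 held 4899 and 36.2 CPM in mouse 4, 2.60 and 152 CPM in mouse 5, and 0 and 9987 CPM in mouse 6. GFP_Barcode_94 was at 13405 CPM in the spleen of mouse 4 and at 189 CPM or less in each other NSG library. GFP_Barcode_17839 was at 13354 CPM in the bone marrow of mouse 5, at 50.2 CPM in that of mouse 6 and at 0 in mouse 4. Each of these 3 barcodes recurred by the rule, but 1 or 2 libraries carried nearly all of its level.

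GFP_Barcode_65886 was shared by mice 4 and 5, with 5012 and 349 CPM and with 319 and 396 CPM, and was at 0 in mouse 6. Of the NSG only barcodes abundant at baseline, GFP_Barcode_104034 (4872 CPM) held 359 and 244, 1420.1 and 0, and 599 and 2116 CPM in mice 4, 5 and 6. GFP_Barcode_9884 (4727 CPM) was at 0 in mouse 4 and appeared mainly in the spleen of mouse 5, at 1622 CPM, and the bone marrow of mouse 6, at 437 CPM. Both were below their baseline level in every mouse. The rarest at baseline, GFP_Barcode_4468 (2.13 CPM), held 30.9 CPM in the bone marrow of mouse 4 and 259 CPM in the spleen of mouse 5, and was at 0 elsewhere.

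Levels in the mice of a strain ranged from even to very uneven. The mouse with most of a barcode held a median of 64.3% of its summed M in the Ptprca group (42.6% to 98.9%) and 76.0% in the NSG group (47.2% to 99.6%). It held over 90% for 5 of 23 and 13 of 58 barcodes. The highest M of a member was 1000 CPM or more for 10 Ptprca only and 13 NSG only barcodes, and under 100 CPM for 4 and 17. The highest and second-highest mouse lay within 2-fold of each other for 13 of 23 Ptprca only and 13 of 58 NSG only barcodes.

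Starting abundance, which the rule used only as above 0, was higher in the members than in most minor barcodes. The median baseline level was 165 CPM for Ptprca only barcodes (quartiles 49.1 and 528) and 235 CPM for NSG only barcodes (83.0 and 477). It was 117 CPM for minor barcodes in exactly 1 mouse, 681 CPM for those in all 6 mice and 28.8 CPM for those in none. From the lowest to the highest of 4 baseline classes, the NSG only share was 3 of 632 under 10 CPM (0.475%, 95% Wilson interval 0.162% to 1.39%), 15 of 825 up to 100 CPM (1.82%, 1.10% to 2.98%), 33 of 720 up to 1000 CPM (4.58%, 3.28% to 6.37%) and 7 of 167 above (4.19%, 2.05% to 8.40%). The Ptprca only numbers in these classes were 1, 7, 13 and 2. With 1 baseline library, no test against it was made.

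Recurrence did not mean a larger share than at baseline. CPM values are shares of a library and do not give cell numbers. The mean M over the 3 mice of a strain was above baseline for 12 of 23 Ptprca only and 22 of 58 NSG only barcodes. In 9 of 23 and 24 of 58, no mouse of the strain exceeded the baseline level. Those in which all 3 mice exceeded it numbered 2 and 1. The ratio of mean M to baseline ran from 0.0165 (GFP_Barcode_5395) to 331 (GFP_Barcode_7130) among Ptprca only barcodes.

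Bone marrow and spleen were then compared within each mouse. Swapping the organs of a mouse leaves M unchanged, so the sign-flip test over organs is independent of the rule. In Ptprca mice 1, 2 and 3, 18, 17 and 12 of the 23 members were at 10 CPM or more in bone marrow and 19, 19 and 14 in spleen. In NSG mice 4, 5 and 6, 40, 40 and 30 of the 58 members were at that level in bone marrow and 12, 28 and 26 in spleen. Every Ptprca mouse thus had slightly more members in spleen (by 1.67 ± 0.577, SD, n = 3) and every NSG mouse fewer (by -14.7 ± 12.2, SD, n = 3). The strain difference was not tested, because the 2 lists differ in size and were chosen separately in each strain. The NSG drop was not particular to the members: over all barcodes, 306, 340 and 299 were at 10 CPM or more in NSG bone marrow and 192, 243 and 217 in spleen. In Ptprca mice 255, 241 and 230 of all barcodes were at that level in bone marrow and 240, 237 and 238 in spleen. Over all 6 mice the mean change in the number of members was -6.5 (exact sign-flip p = 0.313, adjusted p = 0.313).

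Within a mouse, 45 of the 53 cases of a Ptprca only barcode at M of 10 CPM or more had that level in both organs, and the spleen was at 0 in none. The other minor barcodes were close to this, with 83.1%, 83.6% and 83.6% in both organs of mice 1, 2 and 3 and the spleen at 0 in 4, 4 and 0 cases. Of the 135 such cases in NSG mice, 40 had it in both organs, 69 in bone marrow only and 26 in spleen only, and the spleen was at 0 in 65. The other minor barcodes in the same NSG mice, whose median M was higher, had 48.2%, 59.0% and 57.1% in both organs, against 18.2%, 34.0% and 36.6% of the members. Their spleen was at 0 in 39.0%, 30.7% and 28.1% of cases, against 68.2%, 42.0% and 34.1% for the members. In the NSG spleens 20 of 66 member values at 10 CPM or more (30.3%) came from 1 repeat alone, against 2 of 110 in NSG bone marrow and 0 of 99 in Ptprca libraries. The part of repeat noise in the organ pattern was not tested. With only values seen in both repeats counted, the rule gave 25 Ptprca only and 49 NSG only barcodes.

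By summed level the members made up less of a spleen library than of its bone marrow partner. The Ptprca only barcodes summed to 1.2%, 3.21% and 3.17% of the bone marrow and 0.381%, 0.814% and 0.378% of the spleen of mice 1, 2 and 3. The NSG only barcodes summed to 2.09%, 4.35% and 2.39% of the bone marrow and 1.59%, 2.43% and 2.37% of the spleen of mice 4, 5 and 6. On the log2 scale the mean difference was -1.32 (SD 1.13, n = 6), lower in spleen in 6 of 6 mice, with an exact sign-flip p = 0.031, the smallest possible, and an adjusted p of 0.0625 over 2 tests. It was -2.23 ± 0.740 in Ptprca and -0.42 ± 0.415 in NSG mice, a difference between separately chosen lists that was not tested. With the most abundant barcode at disease, GFP_Barcode_52804, taken out of every library total, the mean was -0.95 (exact sign-flip p = 0.25). Counted by barcode, a measure unlike the summed level, lower levels in spleen were not particular to the members. A summed level of other minor barcodes is not given, and the 373 barcodes below include the members. In Ptprca mice, 71.0% of the 373 barcodes in the limma fit below were lower in spleen, against 63.6% of its 22 members. In NSG mice the shares were 81.8% of the 373 and 86.5% of 37 members. Median log2 differences in Ptprca mice were -0.84 over the 373 and -0.58 over the members. In NSG mice they were -1.66 and -1.97.

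Barcode by barcode over all 6 mice, no member passed between organs without the mouse as a block, and 1 passed with it. The fit without the block misses most changes: in simulated NSG data it found 5 of 20 log2 changes of 8. Limma on log2(CPM + 1), over the 373 barcodes that reached 10 CPM in 3 or more of the 12 mouse libraries, called 0 within Ptprca mice (0%) and 1 within NSG mice (0.268%), which was no member. Of the members, 22 of 23 and 37 of 58 passed this filter on low values. At an unadjusted p under 0.05 stood 0 of the 22 and 3 of the 37, against 8 and 42 of all 373. This fit ignored that both organs came from 1 animal. With the mouse as a block, 17 (Ptprca) and 83 (NSG) of all 373 were under that unadjusted limma p. GFP_Barcode_24075 came closest, with 30.0, 180 and 54.1 CPM in bone marrow of mice 4, 5 and 6 and 0 in all 3 spleens (log2 difference -6.08, limma adjusted p = 0.113). It was the member that passed with the mouse as a block (limma adjusted p = 0.0439). Without mouse 5, the spleen differences of GFP_Barcode_24075, GFP_Barcode_21429, GFP_Barcode_22553 and GFP_Barcode_23204 passed, at -5.37, -9.07, -5.70 and -7.25 (limma adjusted p = 0.0496, 0.0151, 0.0494 and 0.0180). This setting left 2 NSG mice. In mouse 5 itself all but GFP_Barcode_24075 went the other way. There GFP_Barcode_21429, GFP_Barcode_22553 and GFP_Barcode_23204 held 4647, 384 and 1187 CPM in spleen against 423, 29.3 and 114 CPM in bone marrow.

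Several members kept a near-constant ratio to each other across libraries, so their counts need not stand for separate clones. A pair was called near-constant when both were above 0 in every library where either had 10 CPM, in at least 3 libraries, with an SD of the log2 ratio of at most 0.5. Of 310 comparable pairs with a member 6 met this, against 31 of 5418 over all candidate barcodes. GFP_Barcode_21429 and GFP_Barcode_23204 held 566 and 158 CPM in bone marrow of mouse 4, 423 and 114 CPM in that of mouse 5, 4647 and 1187 CPM in the spleen of mouse 5, 506 and 144 CPM in bone marrow of mouse 6 and 276 and 61.2 CPM at baseline. Every other library was at 0 for both, and the first was 3.83 times the second on average (SD of the log2 ratio 0.145, 5 libraries). Both were thus present and absent in the same libraries of 3 animals.

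GFP_Barcode_4943 and GFP_Barcode_20521 held 63.3 and 54.8 CPM in bone marrow of mouse 4, 145 and 161 CPM in the spleen of mouse 6, and 419 and 378 CPM at baseline (SD 0.191, 3 libraries). GFP_Barcode_65044, at 102, 134 and 422 CPM in the same libraries, followed GFP_Barcode_4943 with an SD of 0.429. All 3 were at 0 in mouse 5 and in the spleen of mouse 4. Their ratios were less alike in bone marrow of mouse 6, where all were under 10 CPM and outside the definition, at 4.47 (GFP_Barcode_4943), 9.69 (GFP_Barcode_20521) and 2.02 CPM (GFP_Barcode_65044). The pair of GFP_Barcode_20521 and GFP_Barcode_65044 was itself past the limit, with an SD of 0.586. On the Ptprca side, GFP_Barcode_922 and GFP_Barcode_35538 held 10.3 and 12.6 CPM in bone marrow and 14.6 and 13.9 CPM in spleen of mouse 1, and 375 and 369 CPM in the spleen of mouse 2 (SD 0.349, 4 libraries with the baseline). These 4 pairs held 7 members. With near-constant barcodes counted once throughout, the real strains gave 75 barcodes and the other ways at most 40 (exact permutation p = 0.1).

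In a further 2 pairs the partner was no member, because it lay past a limit of the rule. GFP_Barcode_17839 followed GFP_Barcode_43269, which was 2.41 times as abundant (SD 0.135, 4 libraries). The 4 libraries included the baseline and bone marrow of Ptprca mouse 1, at 11.0 (GFP_Barcode_17839) and 23.2 CPM (GFP_Barcode_43269). In mouse 5, GFP_Barcode_43269 stood at 35026 CPM in bone marrow, and its M of 17517 CPM was above the upper limit. GFP_Barcode_24282 held 2191 and 165 CPM in mouse 1 and 2030 and 286 CPM in mouse 2, and GFP_Barcode_58165 was 3.33 times as abundant (SD 0.468, 7 libraries). The 7 libraries included the baseline and bone marrow of NSG mouse 5, where the former was at 6.88 CPM and the latter at 26.4 CPM. Of this pair, only the rarer barcode stayed under 10 CPM in NSG mice.

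Most members had reads in some library of the other strain. Whether these reads came from cells of that mouse was not tested. Of the 23 Ptprca only barcodes, 5 were at 0 in all 6 NSG libraries, and of the 58 NSG only barcodes 24 were at 0 in all 6 Ptprca libraries. In each strain, the library with the most traces was from bone marrow. Bone marrow of NSG mouse 5 had reads for 16 of the 23 Ptprca only barcodes, against 0 to 2 in the other NSG libraries. Bone marrow of Ptprca mouse 1 had reads for 23 of the 58 NSG only barcodes, against 3 to 8 in the other Ptprca libraries. For the members most abundant in one of these libraries, the level in the other was a small share. All 4 Ptprca only barcodes at 1000 CPM or more in mouse 1 bone marrow were seen in mouse 5 bone marrow, at 0.229% to 0.314% of that value. All 9 NSG only barcodes at 1000 CPM or more in mouse 5 bone marrow were seen in mouse 1 bone marrow, at 0.0353% to 0.105% of that value. Over all members seen in both libraries the share was wider, with a median of 0.370% and a range of 0.229% to 70.1% for 15 Ptprca only barcodes, and a median of 0.0823% and a range of 0.0260% to 24.4% for 21 NSG only barcodes. A further 1 and 2 barcodes had reads in the library of the other strain and 0 in its counterpart, among them GFP_Barcode_15574 at 16.3 CPM in mouse 1 bone marrow. Without these 2 libraries, the rule gave 72 barcodes for the real strains and at most 45 for the other ways (exact permutation p = 0.1), with 26 Ptprca only and 46 NSG only. With absence set to 0 in all 6 libraries, it gave 29 and at most 27 (exact permutation p = 0.1).

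Close to the limits, GFP_Barcode_99059 was inside with a second-highest M of 10.2 CPM in NSG mice, and GFP_Barcode_9130 outside at 9.70 CPM. On the Ptprca side GFP_Barcode_922 was inside at 12.4 CPM and GFP_Barcode_75381 outside at 9.18 CPM. In the other strain, GFP_Barcode_15574 reached an M of 8.17 CPM and stayed inside, while GFP_Barcode_25734 reached 10.9 CPM and fell outside. In the Ptprca group the corresponding pair was GFP_Barcode_81575 at 7.83 CPM and GFP_Barcode_5206 at 12.6 CPM. The upper limit removed GFP_Barcode_12212 from the Ptprca side, at 45147 CPM in mouse 1. A single mouse of the other strain between 10 and 20 CPM kept 4 barcodes out of the Ptprca group and 13 out of the NSG group.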

How the data were processed

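The authors deposited 1 table of CPM values (reads of a barcode per 1000000 of its library) for 2505 barcodes in 13 libraries. Per the labels' protocols, each lysate was divided into technical repeats and amplified by PCR in 2 rounds. Bowtie 1.2.2 and R 3.6 are named in the submitters' processing notes, with settings not given in the sources used here. All values under 60 CPM fitted the mean of 2 repeats of whole reads (tolerance 1e-06 CPM), from which the reads of each repeat were inferred; the labels do not state the averaging. On simulated data this recovered 4 of 4 libraries. Because values appear averaged over repeats, no count model was fitted.

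Groups and mouse numbers came from the sample titles. Members and lists were chosen with earlier results of these data known. Counts were tested by exact permutation over the ways to part the mice, with the rule applied anew to each. Organ measures were tested by an exact sign-flip over mice, as both organs come from 1 animal. Over 373 barcodes, the deviations of a mouse's organs from their group means had correlations of 0.796, 0.782 and 0.773 (mice 1, 2 and 3) and 0.225, 0.254 and 0.208 (mice 4, 5 and 6). Organ contrasts within a strain were fitted to log2(CPM + 1) of the deposited values with limma (version 3.58.1, R 4.3.3), using 4 group means, a trend of variance with level, and a threshold of 0.05 on Benjamini-Hochberg adjusted p-values. Tested on simulated data of the NSG contrast with 373 barcodes, it found 2 of 20 log2 changes of 2, 2 of 20 of 4, and 5 of 20 of 8, with 1 false call. Other steps ran in Python (3.11.15) with scipy 1.17.1 and numpy 2.4.6.

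Named barcodes were, per group, the 6 highest by mean M, the 3 highest and 2 lowest at baseline, members called between organs, near-constant pairs and those next to a limit.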

Additional observations from a re-analysis of the deposited data

Results flagged for a closer look

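The number of members at 10 CPM or more changed in opposite directions between organs in the 2 strains. Every Ptprca mouse had more of its members in spleen than in bone marrow and every NSG mouse had fewer, a gap of 16.3 barcodes between the strain means. The difference between strains was not tested, since it sets a list of 23 barcodes against one of 58, each chosen in its own strain. Over all barcodes, every NSG spleen also held fewer at 10 CPM or more than its bone marrow (192 against 306, 243 against 340 and 217 against 299 in mice 4, 5 and 6).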

How the results depend on the processing

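The NSG only number moved to 35 with presence from 100 CPM and to 25 with presence by rank, and over single mice left out it ran from 27 (without NSG mouse 5) to 82 (without Ptprca mouse 1). The Ptprca only number ran from 10 (without Ptprca mouse 2) to 31 (without NSG mouse 5). Recurrence in 3 of 3 mice left 7 Ptprca only and 19 NSG only barcodes, 26 in all, and a level of 0 in all 6 libraries of the other strain left 5 and 24, 29 in all. Spleen alone gave 36 and 20. The NSG minus Ptprca difference turned to -5 by rank and -16 in spleen alone, and ran from -4 (without NSG mouse 5) to 71 (without Ptprca mouse 1). With 2 mice in a strain, presence in both was asked for, and the cause of the other shifts was not tested. Median baseline levels moved to 122 CPM (Ptprca only) and 215 CPM (NSG only) from bone marrow alone, and to 282 CPM (NSG only) with presence from 20 CPM. The summed organ difference (log2) was -0.95 (exact sign-flip p = 0.25) without the most abundant barcode and ran from -1.59 to -0.98 over single mice left out, where 5 pairs allow no exact p under 0.0625. Without the pairing by mouse its exact permutation p was 0.0498, and that of the number of members was 0.284. Limma calls within NSG mice were 4 with the mouse as a block (1 a member), 0 with no filter, 0 with centred log-ratios and 0 to 6 over single mice left out (6 without mouse 5), and the block changed no call within Ptprca mice. The alternatives that counted near-constant barcodes once (75 barcodes in all) and left out the NSG spleens (71) were chosen after seeing the data. Depth was uneven between the repeats of Ptprca mouse 3 bone marrow. In its shallower repeat (170453 reads), 3 reads came to 8.80 CPM, close to the 10 CPM limit. The deeper repeat held 2314066 reads, and values in this library went down to 0.216 CPM (GFP_Barcode_13831).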
